A study of Mus musculus with 12 samples.

Results

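The 9 genes described here carry or control the making of new fatty acids and were chosen by name: Acly, Acaca, Fasn, Me1, Scd1, Elovl6, Srebf1, Thrsp and Pnpla3, out of 55450 genes in the table. All 9 were found by symbol, all are protein-coding, and all 9 passed the filter on low counts in every comparison. Their RNA was measured by total RNA sequencing of 2 organs, brain and liver, from male mice 7 to 9 weeks old. The mice were either wild type for Vaultrc5 (the titles call these libraries flx, a term the labels do not explain) or homozygous knockouts, Vaultrc5-/-. Vaultrc5 encodes a small non-coding RNA of the vault particle. There were 4 groups of 3 libraries each: wild-type brain, knockout brain, wild-type liver and knockout liver. No strain, diet, time of day or treatment was given in the labels, nor whether brain and liver libraries with the same number came from 1 animal, nor whether libraries of a group came from separate animals. If they did not, the p-values measure technical spread only. The knockout is of the whole animal as far as the labels say, and whole organs were sequenced, so fewer cells of a type and less RNA per cell cannot be told apart.

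Fatty acid synthesis starts from citrate exported from the mitochondrion. ATP citrate lyase (Acly) splits it into acetyl-CoA, acetyl-CoA carboxylase 1 (Acaca) makes malonyl-CoA in the committed step, and fatty acid synthase (Fasn) builds palmitate with NADPH supplied in part by malic enzyme 1 (Me1). Elovl6 lengthens palmitate to stearate, and stearoyl-CoA desaturase 1 (Scd1) puts in the double bond that gives oleate. In liver the pathway is switched on by feeding, through insulin and the membrane-bound factor SREBP-1c, a product of Srebf1, and through the sugar-sensing factor ChREBP, a product of Mlxipl. Thrsp (Spot 14) is a small protein induced along with the enzymes by thyroid hormone and carbohydrate, and Pnpla3 is a lipid droplet protein whose gene responds to SREBP-1c. In brain the same enzymes serve membrane and myelin lipids, and the desaturase made in largest amount is Scd2.

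On the GRCm38 build (GENCODE M21 annotation) 4 of the 9 genes lie on chromosome 11, far apart: Srebf1 (ENSMUSG00000020538.15) at chr11:60199089-60222581, Acaca (ENSMUSG00000020532.18) at chr11:84129672-84401651, Acly (ENSMUSG00000020917.17) at chr11:100476353-100528000 and Fasn (ENSMUSG00000025153.9) at chr11:120805846-120824547. Elovl6 (ENSMUSG00000041220.10) is at chr3:129532355-129638495 and Thrsp (ENSMUSG00000035686.8) at chr7:97412938-97417730. Me1 (ENSMUSG00000032418.15) is at chr9:86581371-86695953, Pnpla3 (ENSMUSG00000041653.5) at chr15:84167837-84187236 and Scd1 (ENSMUSG00000037071.3) at chr19:44394455-44407879. Counts that were not whole numbers, which arise where reads shared between genes are split, occurred for Acaca and Scd1 in all 12 libraries, Me1 in 11, Pnpla3 in 4 and Elovl6 in 1. The exons of 4 members overlap another gene: Elovl6 with the antisense gene Gm35986 over 34 bases, Me1 with the antisense gene A330041J22Rik over 30 bases, Srebf1 with Rai1 on the opposite strand over 109 bases and with Mir6922 over 66 bases, and Pnpla3 with Gm49513 over 105 bases. Whether counting used strand is not given in the sources used here, so reads in those stretches cannot be told apart.

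Since most members were high and low in the same liver libraries, the promoters of 3 of them are shown: Fasn and Thrsp, with the widest range in liver of the members over 10 CPM, and Pnpla3, the member with more RNA in brain than in liver. RefSeq windows on GRCm38.p6, from 250 bases before to 50 after the start, were matched for 8 of the 9 members, in 11 windows (3 for Srebf1, 2 for Me1). They read 5′ to 3′ along the gene, with matches to the CCAAT box (CCAAT) and the GC box (GGGCGG) in capitals on either strand.
Fasn, chr11:120824498-120824797, minus strand: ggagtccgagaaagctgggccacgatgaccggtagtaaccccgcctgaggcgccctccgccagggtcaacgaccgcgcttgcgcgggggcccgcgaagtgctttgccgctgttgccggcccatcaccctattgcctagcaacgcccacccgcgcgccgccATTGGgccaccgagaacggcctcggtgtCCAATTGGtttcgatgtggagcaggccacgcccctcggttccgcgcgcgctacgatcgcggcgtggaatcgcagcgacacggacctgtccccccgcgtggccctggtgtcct
Thrsp, chr7:97417501-97417800, minus strand: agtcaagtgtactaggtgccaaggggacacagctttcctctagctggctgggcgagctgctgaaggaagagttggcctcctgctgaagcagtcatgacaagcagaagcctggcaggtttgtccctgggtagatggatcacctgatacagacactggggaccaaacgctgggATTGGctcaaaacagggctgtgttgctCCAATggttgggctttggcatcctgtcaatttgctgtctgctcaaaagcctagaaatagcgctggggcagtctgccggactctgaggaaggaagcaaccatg
Pnpla3, chr15:84167566-84167865, plus strand: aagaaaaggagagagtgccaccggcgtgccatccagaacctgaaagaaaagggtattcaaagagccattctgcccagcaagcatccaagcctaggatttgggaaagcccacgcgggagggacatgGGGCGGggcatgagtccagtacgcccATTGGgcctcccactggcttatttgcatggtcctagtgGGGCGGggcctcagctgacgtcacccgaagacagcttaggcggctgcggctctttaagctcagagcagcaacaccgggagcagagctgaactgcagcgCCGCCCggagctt

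The Fasn window holds 3 CCAAT matches, at positions -90 to -86, -62 to -58 and -59 to -55 from the start, the last 2 of which overlap on opposite strands. The Thrsp window holds 2, at -79 to -75 and -52 to -48. Pnpla3 has 1 CCAAT match at -99 to -95 and 3 GC box matches. Over the members, the CCAAT box was present in 7 of 11 windows, against 37.4% of 32851 mouse windows of the same length. The GC box was present in 5 of 11 windows, against 35.7% of all windows. Counted by gene they were in 6 and 4 of 8, for which the share of windows is no match, since Srebf1 and Me1 have several windows. The Acaca window, at chr11:84195188-84195487, lies inside the gene, away from its annotated start at 84129672. The sterol response element spelled TCACNCCAC was in 0 of 11 (1.24% of all windows) and the E-box CACGTG in 0 of 11 (7.15%). A missing match says only that these letters are not in these windows, and no match here is a binding site measured in these animals.

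Brain libraries totalled between 14844965 and 18567388 counts, and liver libraries between 23247451 and 27155500. Levels are given as CPM, read counts scaled to a common library size with TMM factors within an organ. Scaled to library totals without those factors, 3 counts correspond to 0.162 to 0.202 CPM in brain libraries and 0.110 to 0.129 CPM in liver libraries. The targeted gene had 33, 39 and 48 counts in wild-type liver and 0 in each knockout liver, and 4, 1 and 4 counts in wild-type brain against 0 in each knockout brain. Its edgeR adjusted p in liver was 0.333, and the DESeq2 Wald test gave 7.75e-06; it had too few counts to be tested in brain. The hepatocyte markers Alb and Apob were at 30373 to 54534 and 12808 to 15995 CPM in liver and at most 2.02 CPM in brain, where of that list only Ttr, known also from the choroid plexus, was abundant in some libraries (0.276 to 584 CPM). The neuronal marker Snap25 was at 1856 to 2219.5 CPM in brain and at most 0.117 in liver.

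Scd1 was the most abundant member in liver by a wide margin. Levels compared between genes are per kb of exon length, over the 6 libraries of a tissue. Scd1 stood at 1807 ± 715 CPM per kb in liver (SD, n = 6), followed by Fasn at 84.8 ± 53.4, Acly at 65.2 ± 30.1, Me1 at 55.2 ± 18.6 and Thrsp at 52.3 ± 38.4. Srebf1 was at 36.9 ± 14.2, Elovl6 at 17.5 ± 10.3, Acaca at 13.9 ± 5.11 and Pnpla3 at 0.309 ± 0.256. The ranges of Scd1 and Pnpla3 lay apart from those of their neighbours in this order, while each pair of neighbours from Fasn down to Acaca overlapped. In brain the order was Scd1 (39.3 ± 9.29 CPM per kb), Fasn (28.1 ± 2.33), Acly (26.9 ± 6.06), Me1 (11.2 ± 1.18), Elovl6 (9.37 ± 1.37), Acaca (8.02 ± 0.508), Srebf1 (5.71 ± 0.684), Thrsp (4.197 ± 1.26) and Pnpla3 (3.10 ± 0.753). Only the steps from Acly to Me1 and from Acaca to Srebf1 separated the ranges in brain.

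Every member varied in liver within a genotype. For Fasn, the wild-type livers had 1278, 554 and 855 CPM (libraries 1, 2 and 3), and the knockout livers had 496, 449 and 1939 CPM. The highest and the lowest of the 6 livers were both knockouts, 4.32-fold apart. Acaca, the committed step, was at 234, 193 and 283.5 CPM in wild-type and 168, 157 and 388 CPM in knockout liver. Acly was at 389, 247 and 375 CPM in wild type against 251, 179 and 623 CPM in knockout. In all 3 of these genes knockout liver 3 was above every wild-type liver and knockout liver 2 was below every wild-type liver.

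Scd1 was at 11101, 6494 and 7761 CPM in wild-type and 8107, 4932 and 14629.9 CPM in knockout liver. Elovl6 was at 99.9, 67.2 and 137 CPM in wild type against 61.8, 74.7 and 235 CPM in knockout. The desaturase and the elongase thus had their highest value in the same library as Fasn. Me1, the NADPH source, was at 239, 156 and 247 CPM in wild type against 208, 112 and 314 CPM in knockout liver.

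The regulator Srebf1 was at 328, 199.5 and 166 CPM in wild-type and 124, 149.6 and 281 CPM in knockout liver. It was the 1 member whose highest library was not knockout liver 3 but wild-type liver 1. Thrsp was at 160.4, 56.3 and 104 CPM in wild type against 50.9, 52.6 and 262 CPM in knockout, a 5.15-fold range. Pnpla3 was scarce, with 22, 5 and 5 counts in wild-type and 11, 3 and 24 counts in knockout liver, a 7.99-fold range in CPM.

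**Figure D1:**
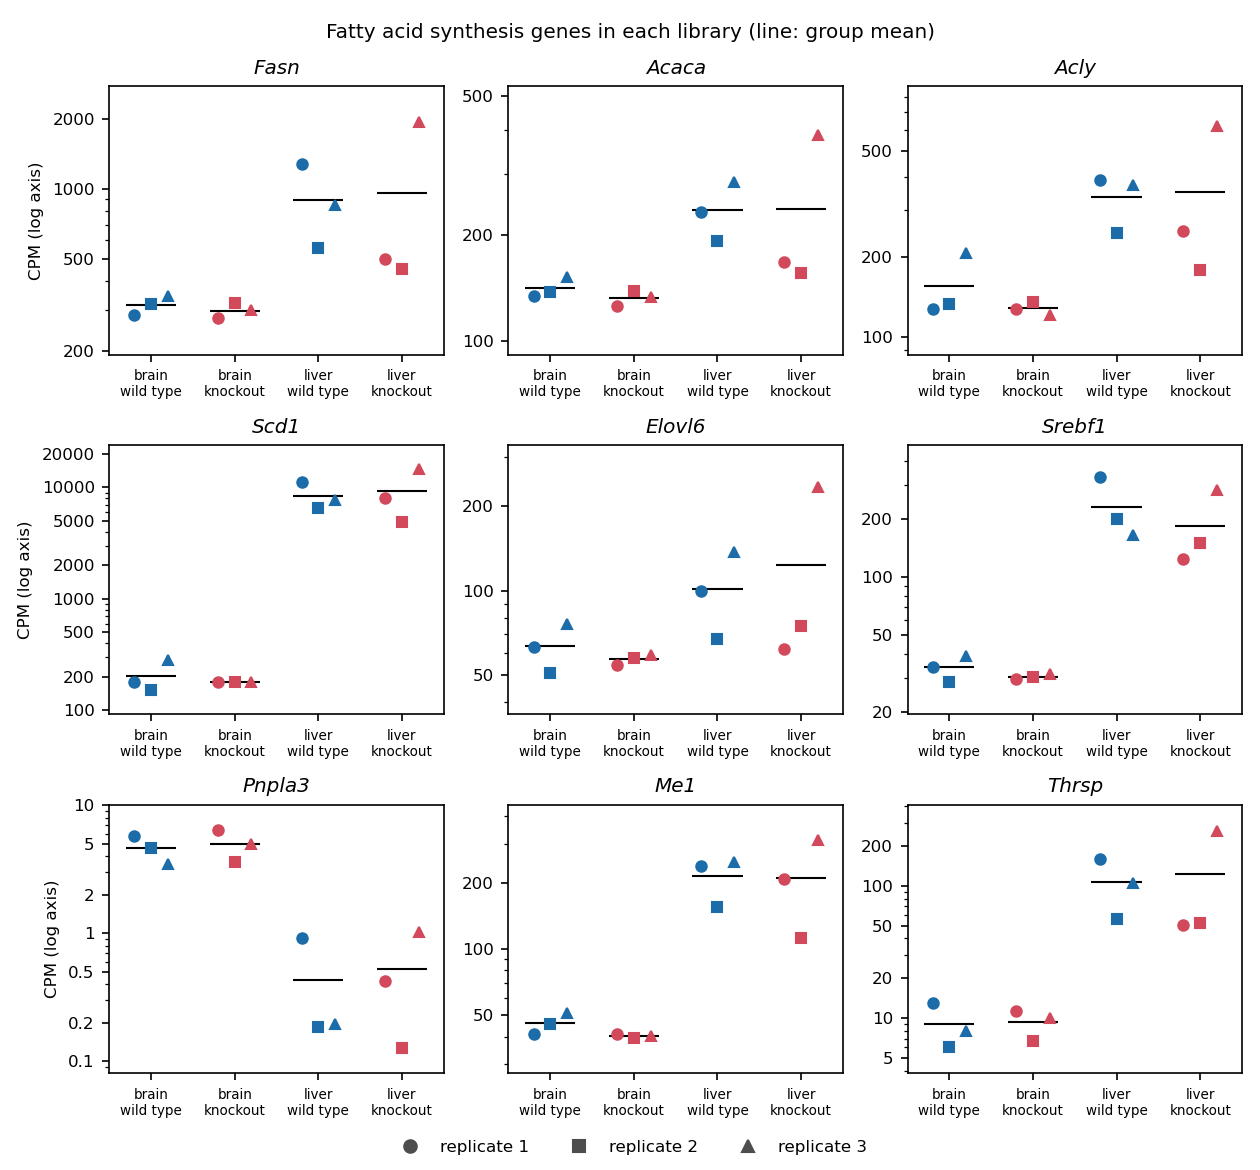
CPM of each of the 9 genes (log axes) in every library, by tissue and genotype, with the replicate number as the marker shape and the group mean as a line. In every panel brain values lie closer together than liver values. In liver knockout library 3 is the highest for every gene but Srebf1, and the genotypes overlap in every panel.

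Ranked within liver, knockout library 3 was the highest for 8 of the 9 members (88.89%), against 17.16% of the 15329 genes tested in liver. Knockout library 2 was the lowest for 6 (66.67%), against 21.87% of all genes tested and 27.14% of those of at least 10 CPM, and knockout library 1 for the other 3. Wild-type library 1 was among the top 3 for all 9. The combination of knockout 3 highest and knockout 2 lowest held for 6 of 9 members (66.67%), against 5.989% of all genes tested and 7.884% of the 7598 tested genes with a mean of at least 10 CPM. These shares are a description, with the 9 genes measured in the same 6 libraries and therefore not independent.

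**Figure D2:**
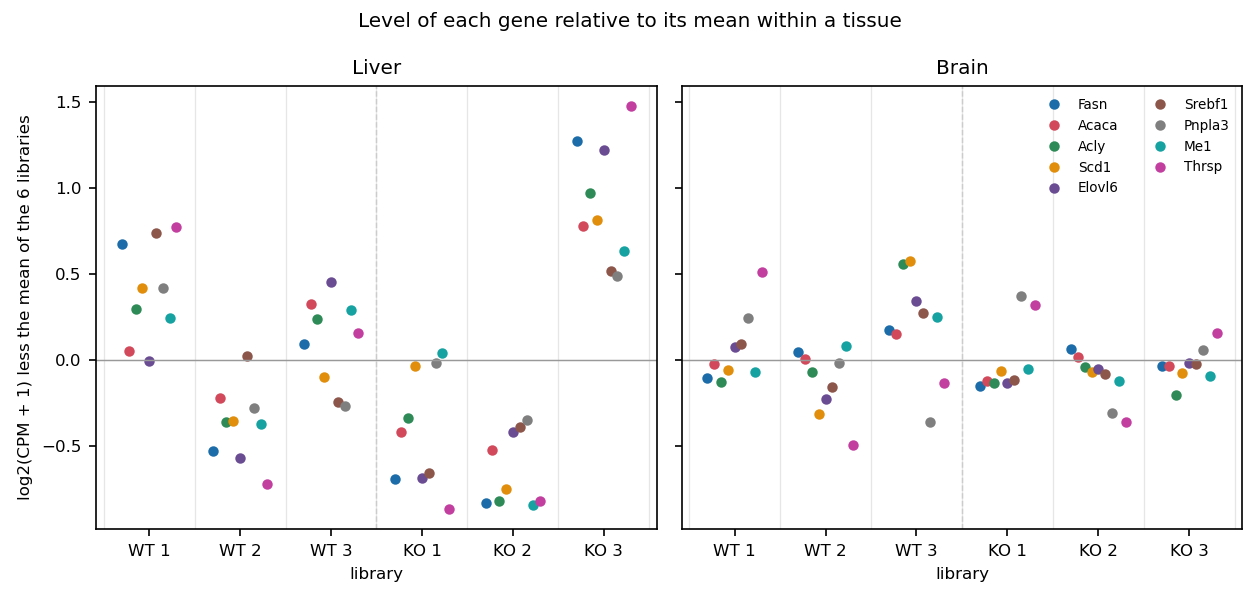
log2(CPM + 1) of each gene less its mean over the 6 libraries of a tissue, for wild-type (WT) and knockout (KO) libraries, 1 point per gene. In liver the 9 genes sit between 0.49 and 1.48 in knockout library 3 and between -0.84 and -0.35 in knockout library 2. In brain 7 of the 9 are highest in wild-type library 3.

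The spread between livers of 1 genotype was large for these genes compared with all genes of at least 10 CPM, which were not matched to them on abundance. On the log2(CPM + 1) scale, the pooled within-genotype SD was 1.09 for Thrsp, 0.94 for Fasn, 0.82 for Elovl6, 0.70 for Acly, 0.62 for Scd1, 0.59 for Me1, 0.56 for Srebf1 and 0.55 for Acaca. The median over 7600 genes with a mean of at least 10 CPM was 0.13, and 0.855% (for Thrsp) to 3.42% (for Acaca) of them had a larger SD. Wild-type livers alone gave SDs of 0.28 for Acaca to 0.75 for Thrsp against a median of 0.11, with 1.21% to 10.38% of genes above. Thus the wide spread was also present without any knockout library. In brain the members of at least 10 CPM, which leave out Thrsp, had SDs of 0.08 (Acaca) to 0.33 (Scd1). The median there was 0.15, and 16.75% to 83.7% of 10360 genes were above. Thrsp and Pnpla3, under 10 CPM in brain, had SDs of 0.44 and 0.32. Among the members of at least 10 CPM, the brain spread of Scd1 and Acly, the most variable, lay in the wild-type libraries. Their wild-type SDs were 0.46 and 0.38, with 9.68% and 14.4% of genes above. Their knockout SDs were 0.0067 and 0.08, with 99.75% and 73.35% above.

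**Figure D3:**
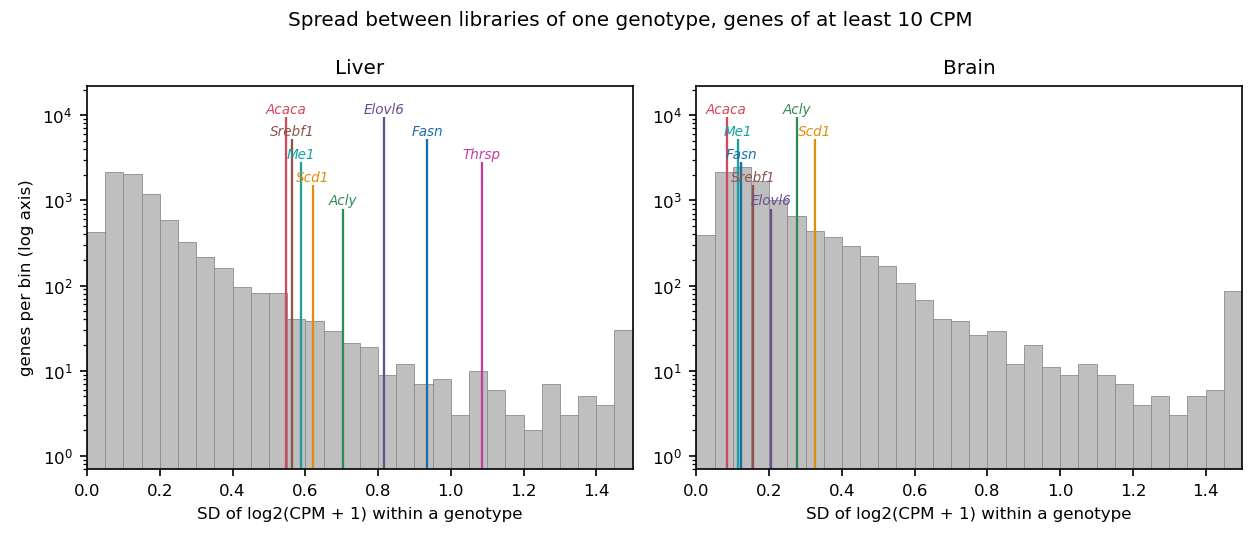
Number of genes (log axis) by the SD of log2(CPM + 1) between libraries of 1 genotype, pooled over both genotypes, for genes of at least 10 CPM in liver and in brain. Coloured lines mark the members of at least 10 CPM, and the rightmost bin also holds all larger values. In liver the members lie in the right tail, from 0.55 (Acaca) to 1.09 (Thrsp), and in brain they lie within the bulk, from 0.08 to 0.33.

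The first comparison asks whether loss of Vaultrc5 changes these genes in liver. None of the 9 was called: knockout against wild type gave log2 fold changes of -0.32 ± 0.397 (SE) for Srebf1 to 0.29 ± 0.603 for Elovl6, with 7 positive and 2 negative and a median of 0.10, against a median of 0.005 over all genes. By edgeR's quasi-likelihood test the adjusted p was 0.992 to 1 for the 9, and 0 of 15329 genes were called at an adjusted p under 0.05 (0%). At an unadjusted p under 0.05 there were 536 genes (3.5%) and 0 members. The DESeq2 Wald test called 10 genes and 0 members.

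The intervals show how little the 6 livers bound these effects when the replicate number is not used to pair them. For Fasn the log2 fold change was 0.10 with a 95% interval of -1.58 to 1.79, with means of 896 ± 363.5 CPM in wild type against 961 ± 847 CPM in knockout (SD, n = 3). For Acaca it was 0.005 (-0.94 to 0.96), with 237 ± 45.2 and 238 ± 130.4 CPM. For Acly it was 0.06 (-1.18 to 1.295), with 337 ± 78.6 and 351 ± 238 CPM. In all 3 genes the 2 means differed by less than either group's SD.

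Among the enzymes that act after palmitate, Scd1 gave 0.13 (-0.85 to 1.101) with 8452 ± 2380 CPM in wild type against 9223 ± 4944 CPM in knockout. Elovl6 gave 0.29 (-1.24 to 1.815) with 101.5 ± 35.1 and 124 ± 96.6 CPM. Me1 gave -0.02 (-0.99 to 0.95) with 214 ± 50.6 and 211 ± 101.0 CPM. In each case the knockout SD was larger than the wild-type SD.

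Srebf1 gave -0.32 (-1.30 to 0.66) with 231 ± 85.8 CPM in wild type against 185 ± 84.3 CPM in knockout. Thrsp gave 0.19 (-1.92 to 2.30) with 107 ± 52.1 and 122 ± 121.5 CPM. Pnpla3 gave 0.29 (-1.76 to 2.33) with 0.434 ± 0.424 and 0.523 ± 0.455 CPM.

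The sign of the liver result changed with the libraries used, most of all with knockout library 3. Without knockout library 3, all 9 members were negative, from -1.05 for Thrsp to -0.38 for Scd1, with a median of -0.61. The lowest adjusted p was then 0.677, and 3 members had an unadjusted p under 0.05 (Acaca 0.0138, Acly 0.0375 and Fasn 0.0411). Without wild-type library 2, 8 members were negative and 1 positive, with a median of -0.12. Without knockout library 2, 8 were positive and 1 negative, with a median of 0.43. Without wild-type library 1, 8 were positive, with a median of 0.28 and values up to 1.44 (Pnpla3).

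Wild-type and knockout livers with the same number deviated together over genes, so the replicate number was also used as a block. Under the block 3 members were positive and 6 negative, with a median of -0.11 and edgeR adjusted p of 0.915 or more. It called 2 genes, G0s2 and Foxq1 (named after their values were seen), and 0 members. The SE was smaller under the block for most members, as for Me1 (0.161 against 0.393 without it) and Acaca (0.19 against 0.387). For Srebf1 (0.555 against 0.397) and Thrsp (0.83 against 0.82) it was larger. Compared within a number, on log2(CPM + 1), knockout liver 1 was below wild-type liver 1 for 9 of 9 members (median -0.63, from -1.64 to -0.20). Knockout liver 2 was below wild-type liver 2 for 8 of 9 (median -0.30, with Elovl6 0.15 higher). Knockout liver 3 was above wild-type liver 3 for 9 of 9 (median 0.76, from 0.34 to 1.32). The order below, below and above held for 8 members (88.89%) and for 14.35% of all genes tested. These within-number directions were examined after the values were seen and carry no test.

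**Figure D4:**
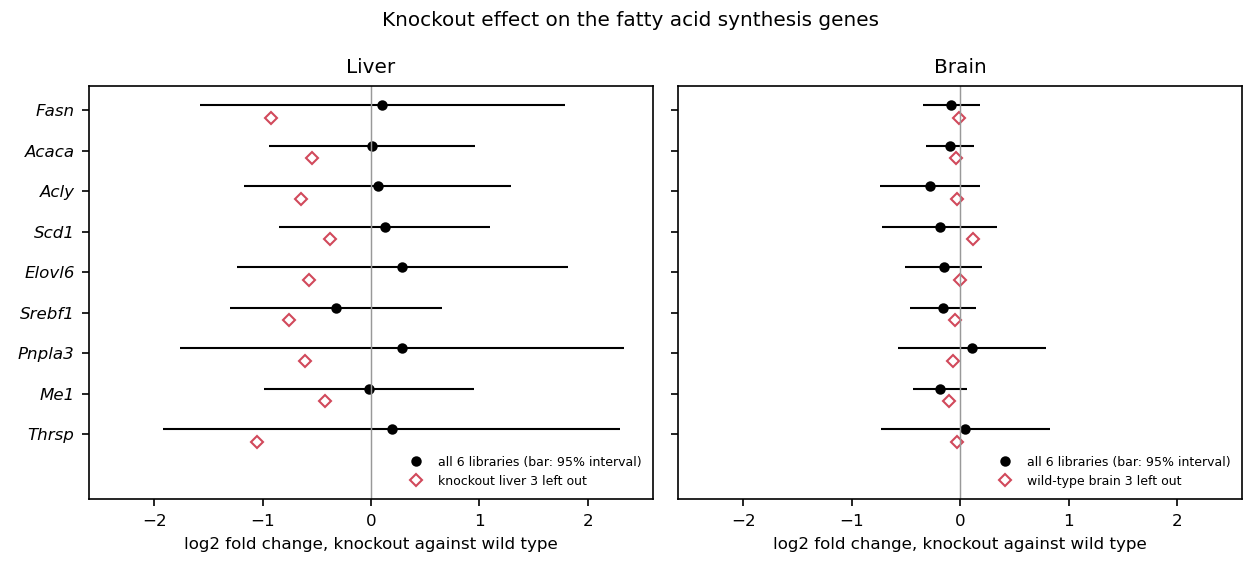
log2 fold change of knockout against wild type for each of the 9 genes in liver and brain. Black points use all 6 libraries, with 95% intervals; red diamonds leave out knockout liver 3 or wild-type brain 3. All 18 intervals include 0; in liver the diamonds lie at -1.05 to -0.38, and in brain they lie between -0.10 and 0.11.

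Genes that report on the animal's state differed between the same livers. In the list of 11 fasting and feeding genes 0 were called (median log2 fold change -0.11). Knockout liver 3 was the highest for 5 (45.45%, against 17.16% of all genes tested). Wild-type liver 3 was the highest for 4 (36.36%, against 17.01%) and wild-type liver 1 for 2 (18.18%, against 16.95%). The members' combination of knockout 3 highest and knockout 2 lowest held for 0 of these 11, against 5.989% of all genes tested. Igfbp1, an insulin-repressed gene, was at 31.7, 58.3 and 93.4 CPM in wild-type and 18.5, 31.8 and 170.3 CPM in knockout liver. Irs2, an insulin receptor substrate also repressed by insulin, was at 43.4, 69.0 and 79.7 CPM in wild type against 41.0, 44.7 and 117 CPM in knockout. Both were highest in knockout liver 3, the library with the most Fasn. Pck1, the gluconeogenic enzyme, was at 772, 1874 and 2029.9 CPM in wild type against 867, 1996 and 2110.4 CPM in knockout, low in the libraries numbered 1.

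In the list of 11 clock genes 0 were called (median -0.06). Per1, which peaks around the onset of activity, was at 11.1, 26.4 and 64.1 CPM in wild-type and 9.46, 13.9 and 71.7 CPM in knockout liver. Arntl, which peaks in the opposite phase, was at 8.65, 9.10 and 2.45 CPM in wild type against 14.2, 11.7 and 2.89 CPM in knockout. The libraries numbered 3 of both genotypes thus stood apart in these clock genes. Of the 9 members, 3 had wild-type liver 3 as their second highest library and 6 had it among the top 3. The part of feeding state and clock time in the members' spread was not tested.

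Markers of other cell types were also uneven between the livers. The summed level of 6 hepatocyte markers was 70440 to 82227 CPM in wild-type and 60578 to 86481 CPM in knockout liver, lowest in knockout 2 and highest in knockout 3. Alb made up most of that sum: of the 6 markers it alone was highest in knockout liver 3, while 4 were lowest in knockout liver 2. All 6 Kupffer cell and microglia markers were highest in knockout liver 2, the library lowest for 6 members and the highest for 23.71% of all genes tested: their sum there was 228 CPM against 101 to 120.4 CPM in the other knockouts and 90.9 to 121 CPM in wild type. The part of either list in the result was not tested. Of the 7 adipocyte markers, Adipoq was listed at 0 in 4 livers, knockout 3 among them, at 0.126 CPM in wild-type liver 1 and at 1.65 CPM in knockout liver 1, where Plin1 was at 1.69 and Cfd at 3.26 CPM. Their part in the members' values was not tested. The sum of all 7 markers was 2391.5 to 2997 CPM in wild-type and 1211 to 3025 CPM in knockout liver, nearly all of it Car3, which hepatocytes also express. For knockout against wild type, all 6 Kupffer cell and microglia markers were positive in liver (median log2 fold change 0.51, 2 at an unadjusted p under 0.05), as were all 5 red cell markers (median 0.95, 2 at an unadjusted p under 0.05) and all 4 endothelial markers (median 0.17, 1 at that level). Of the 6 cholangiocyte and stellate cell markers 5 were positive (median 0.19). The hepatocyte markers had a median of -0.13, with 4 of 6 negative, and no gene of any list passed the adjusted threshold.

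In brain the same comparison bounded the effects more tightly, and none of the 9 members was called. Log2 fold changes ran from -0.28 for Acly to 0.11 for Pnpla3, with 2 positive and 7 negative and a median of -0.15, against -0.006 over all genes. edgeR's adjusted p was 1 for each, with 0 of 18075 genes called (0%) and 122 at an unadjusted p under 0.05 (0.675%), of which 0 were members. The DESeq2 Wald test also called 0 genes.

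Fasn was at 285, 317 and 345 CPM in wild-type and 276, 320.0 and 299 CPM in knockout brain. Its log2 fold change was -0.08 ± 0.111 (95% interval -0.35 to 0.18). Acaca was at 134.5, 138 and 152 CPM in wild type against 126, 139 and 133 CPM in knockout, a log2 fold change of -0.09 ± 0.0915 (-0.31 to 0.13). For both genes the wild-type and knockout brains overlapped.

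Acly was at 128, 133 and 207 CPM in wild-type and 128, 136 and 121.5 CPM in knockout brain, with a log2 fold change of -0.28 ± 0.193 (-0.74 to 0.18). Scd1 was at 181, 151 and 282 CPM in wild type against 180.4, 179.8 and 179 CPM in knockout, with -0.19 ± 0.223 (-0.72 to 0.34). In both genes a single library, wild-type brain 3, stood above the other 5, which lay together. Elovl6 was at 63.1, 51.0 and 76.1 CPM in wild type against 54.5, 57.6 and 59.2 CPM in knockout, with -0.15 ± 0.149. Me1 was at 41.0, 45.6 and 51.2 CPM in wild type against 41.4, 39.4 and 40.2 CPM in knockout, with -0.19 ± 0.104 (-0.44 to 0.06).

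Srebf1 was at 34.3, 28.7 and 39.0 CPM in wild-type and 29.5, 30.3 and 31.5 CPM in knockout brain, with -0.16 ± 0.127. Thrsp, at 13.1, 6.01 and 8.00 CPM in wild type against 11.3, 6.68 and 10.0 CPM in knockout, gave 0.05 ± 0.329. Pnpla3, at 5.77, 4.63 and 3.45 CPM in wild type against 6.397, 3.61 and 4.94 CPM in knockout, gave 0.11 ± 0.287. Thrsp and Pnpla3 were the members not highest in wild-type brain 3, and Pnpla3 was lowest there.

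Wild-type brain 3 was the highest library for 7 of the 9 members (77.78%), against 19.64% of all genes tested in brain. It was also the highest for 6 of 8 cholesterol genes (75%) and 15 of 25 other enzymes of fatty acid metabolism (60%). The same library was the highest for all 8 oligodendrocyte markers, whose sum was 7561 CPM there against 2205 and 3588 CPM in the other wild-type brains and 2475 to 4057 CPM in the knockouts; Mbp, the myelin basic protein gene, was at 3431.5 CPM there and at 987 to 1805 CPM in the other 5. The 8 markers gave a median log2 fold change of -0.45 for knockout against wild type, all 8 negative and 0 called. Their part in the members' values was not tested. Without wild-type brain 3 the members' median log2 fold change was -0.03, from -0.10 to 0.11. Without knockout brain 1 all 9 members were negative, with a median of -0.12. Without wild-type brain 2, 8 were negative, with a median of -0.19 and unadjusted p under 0.05 for Elovl6 (0.0448) and Srebf1 (0.0493). Without wild-type brain 1, 7 were negative, with a median of -0.15 and an unadjusted p under 0.05 for Me1 (0.0373). The edgeR adjusted p was 0.995 or more for every member in each of these fits. In knockout brain 3 adipocyte markers were present (Plin1 1.73, Cfd 5.56, Adipoq 1.05 and Car3 14.1 CPM, sum 27.9 against 0.535 to 0.772 CPM in the other 5), and 0 of the members were highest in that library. Of the hepatocyte, Kupffer cell and microglia, endothelial, cholangiocyte and stellate, neuron, astrocyte and red cell lists, 0 genes were called in brain.

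The difference between the liver and brain effects was tested over all 12 libraries. It was positive (liver effect above brain effect) for 8 of 9 members, with a median of 0.16 on the log2 scale, from -0.19 ± 0.42 for Srebf1 to 0.41 ± 0.60 for Elovl6. The edgeR adjusted p was 1 for all 9. Of 20141 genes 0 were called (0%), with 489 at an unadjusted p under 0.05 (2.43%) and 0 members among them. DESeq2 called 1 gene, Gm20687, and the replicate block called 2, Moxd1 and Cela2a, all 3 named after their values were seen. Without knockout liver 3 all 9 differences were negative, with a median of -0.46, and 2 members had an unadjusted p under 0.05 by edgeR. Without wild-type liver 2, 3 differences were positive and 6 negative, with a median of -0.055. Under the replicate block 5 were positive and 4 negative, with a median of 0.053.

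Between the tissues the members differed strongly. In wild-type animals 8 of the 9 were called higher in liver and 1, Pnpla3, higher in brain. Of 18850 genes tested, 14817 were called (78.6%), 6542 higher in liver (34.7%) and 8275 higher in brain (43.9%), so a call by itself says little here. The comparison was repeated in the knockouts, which share no library with the wild-type comparison: again 8 members were called higher in liver and Pnpla3 in brain. There 14789 of 18785 genes were called (78.7%), 6611 higher in liver (35.2%) and 8178 higher in brain (43.5%).

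Scd1 showed the largest difference among the members. It was 74.97-fold higher in wild-type liver than in wild-type brain (log2 fold change, brain against liver, -6.23 ± 0.366) and 92.9-fold higher in knockout liver (-6.54 ± 0.468). Its brain counterpart Scd2 went the other way, 87.0-fold higher in wild-type brain (6.44 ± 0.242) and 62.5-fold in knockout brain (5.97 ± 0.207). Scd2 was at 993 to 1648 CPM in brain and 7.12 to 10.8 CPM in liver.

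Thrsp followed, 21.4-fold higher in wild-type liver (-4.42 ± 0.462) and 23.5-fold in knockout liver (-4.55 ± 0.741). Srebf1 was 12.3-fold (-3.62 ± 0.282) and 11.0-fold higher (-3.46 ± 0.308). Me1 was 8.44-fold (-3.08 ± 0.202) and 9.48-fold higher (-3.25 ± 0.357). Scd1, Thrsp, Srebf1 and Me1 had edgeR adjusted p of 0.000855 or less in both comparisons. Without knockout liver 3 the knockout log2 fold change of Thrsp was -3.36.

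The core enzymes differed less. Fasn was 5.14-fold higher in wild-type liver (-2.36 ± 0.293, adjusted p 0.000156 by edgeR) and 5.81-fold in knockout liver (-2.54 ± 0.566). Acly was 3.92-fold (-1.97 ± 0.246) and 4.94-fold higher (-2.30 ± 0.438). Acaca was 3.04-fold (-1.602 ± 0.154) and 3.24-fold higher (-1.70 ± 0.341), and Elovl6 2.90-fold (-1.54 ± 0.265) and 3.91-fold higher (-1.97 ± 0.484). The second carboxylase gene, Acacb, whose product sits at the mitochondrion, was 34.9-fold (-5.13 ± 0.243) and 45.4-fold higher in liver (-5.51 ± 0.345). Pnpla3 was 5.94-fold (2.57 ± 0.593) and 5.24-fold higher in brain (2.39 ± 0.588, adjusted p 0.00675). Knockout liver 3 set much of the size of the knockout differences: without it they were -1.55 for Fasn, -1.64 for Acly, -1.14 for Elovl6 and 3.24 for Pnpla3 on the log2 scale. Without wild-type liver 1 the wild-type difference of Pnpla3 was 3.70. All 9 members stayed called in both genotypes with any 1 library left out, at an edgeR adjusted p of 0.0315 or less.

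Among the other pathway genes, the enzyme and triglyceride lists were mostly higher in liver with TMM and with library totals, whereas the direction of the regulators depended on the scaling. Of 27 other enzymes tested in wild type, 18 were called higher in liver and 8 in brain (median -1.77), and in knockouts 19 and 8 (median -2.03). Scaled to library totals in place of TMM, 18 were higher in liver in each genotype (medians -0.93 and -1.15). Of the triglyceride assembly genes, 13 of 14 were higher in liver in wild type and 13 of 15 in knockouts, with medians of -3.20 and -3.25, and 10 in each with library totals (medians -2.36 and -2.39). Of 19 regulators, 14 were higher in liver in wild type (median -0.83) and 13 in knockouts (median -0.66), with 3 higher in brain in each. With library totals the regulators' medians turned to 0.006 and 0.22, with 9 and 8 higher in liver and 4 and 6 higher in brain. Mlxipl, at 1.37 to 2.59 CPM in brain, differed most among the regulators named here, 500.4-fold in wild type (-8.97) and 429-fold in knockouts (-8.74).

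These sizes depend on the scaling between organs. Scaling to library totals in place of TMM moved the median of all genes from 0.21 to 1.05 in wild type and from 0.21 to 1.085 in knockouts, towards brain. The calls were then 11635 higher in brain and 3998 higher in liver in wild type, and 11668 and 3871 in knockouts. All 9 members kept their direction in both comparisons. The difference was then -1.52 for Fasn, -0.77 for Acaca, -0.70 for Elovl6 and 3.41 for Pnpla3 in wild type, and all 9 stayed called there, with Elovl6 at an adjusted p of 0.0463. In the knockouts Acaca (-0.84, adjusted p 0.0642) and Elovl6 (-1.11, adjusted p 0.0736) were no longer called by edgeR under that scaling.

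**Figure D5:**
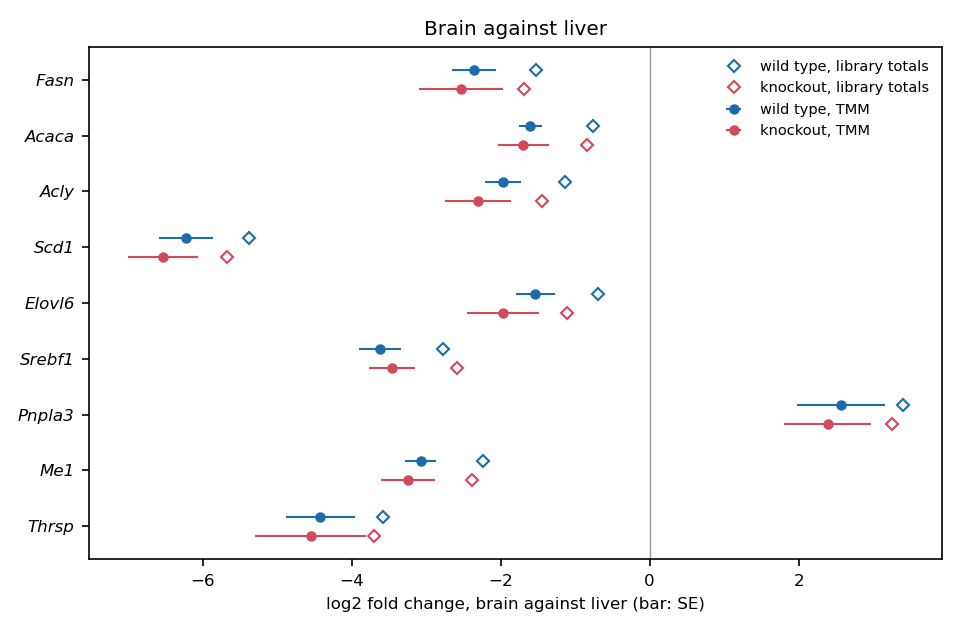
log2 fold change of brain against liver for each of the 9 genes, in wild type (blue) and knockout (red). Filled points use TMM scaling with bars for the SE, and open diamonds scale to library totals. 8 genes lie on the liver side and Pnpla3 on the brain side under both scalings.

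Regulators of the pathway did not pass the test in either organ of the knockouts. Of 19 regulators, 0 of 19 tested were called in liver (median -0.02) and 0 of 18 in brain (median -0.03). Mlxipl was at 441, 466 and 482 CPM in wild-type and 522, 361 and 598 CPM in knockout liver, the highest and lowest in the same libraries as Fasn but over a narrower range. Scap, the escort that carries SREBP to the Golgi, was at 153, 152 and 155 CPM in wild type against 149, 132 and 190.1 CPM in knockout. Insig1, which retains it and is itself an SREBP target, was at 484, 265 and 217 CPM in wild type against 231, 265 and 353 CPM in knockout, highest in wild-type liver 1 like Srebf1. Insig2 was at 193, 127 and 114 CPM in wild type against 204, 161 and 66.2 CPM in knockout, lowest in knockout liver 3.

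Srebf2, the cholesterol branch's factor, was at 60.2 to 71.2 CPM in wild-type and 62.6 to 80.8 CPM in knockout liver, and Nr1h3, the LXR alpha gene, at 47.2 to 48.8 and 50.1 to 57.6 CPM. Nr1h3 was higher in each knockout liver than in every wild-type liver, without a call. Mid1ip1, a paralog of Thrsp, was at 62.1, 37.1 and 40.0 CPM in wild type against 31.5, 21.6 and 51.1 CPM in knockout. Of 8 cholesterol synthesis and uptake genes 0 were called in liver (median 0.03) and 0 in brain (median -0.13, 7 of 8 negative). Of 8 AMPK genes, whose kinase inhibits Acaca's product, 0 were called in liver (median 0.02) or brain (median 0.03).

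Of 28 other enzymes of fatty acid metabolism 24 were tested in liver and 25 in brain, and 0 were called in either. Their medians were 0.06 in liver and -0.09 in brain, where 22 were negative. In liver 9 of 24 were highest in knockout library 3 (37.5%, against 17.16% of all genes tested). Acacb was at 139, 86.1 and 135 CPM in wild-type and 132, 90.0 and 212 CPM in knockout liver. Elovl5 was at 484, 310.0 and 418 CPM in wild type against 339, 174 and 535.5 CPM in knockout. Pklr, the liver pyruvate kinase and a ChREBP target, was at 279, 159.5 and 228 CPM in wild type against 234, 129 and 394 CPM in knockout. These 3 shared knockout liver 3 as the highest library with the members.

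Acss2, which makes acetyl-CoA from acetate, was at 247, 110.1 and 175 CPM in wild-type and 149, 80.4 and 221 CPM in knockout liver, highest in wild-type liver 1. Slc25a1, the citrate carrier, was at 127 to 157 CPM in wild type against 112 to 149.6 CPM in knockout. Fads1 was at 345 to 409 and 314 to 468 CPM, and Fads2 at 400.3 to 546 and 361 to 494 CPM. The citrate carrier and the desaturases of polyunsaturated fatty acids therefore ranged less than Fasn.

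Of 17 triglyceride assembly genes 15 were tested in liver and 14 in brain, with 0 called and medians of -0.04 and -0.01. Gpam, the first acyltransferase, was at 413, 269 and 283 CPM in wild-type and 272, 207.5 and 479.9 CPM in knockout liver. Dgat2, the last, was at 288, 296 and 337 CPM in wild type against 227, 227 and 320.2 CPM in knockout. Lpin1, the phosphatidate phosphatase, was at 94.6, 123 and 354 CPM in wild type against 68.0, 109.6 and 675 CPM in knockout. Lpin1 was highest in knockout liver 3 and next in wild-type liver 3, an order that Acaca, Elovl6 and Me1 shared.

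Of the 7590 other genes of at least 10 CPM in liver, the 5 whose profile over the 6 libraries was nearest to the members' median were 1810008I18Rik, Ugt1a5, Gpam, Pdk1 and Uox, by the root mean square difference of centred log2(CPM + 1), 0.0975 to 0.21. Pdk1 was at 82.6, 59.6 and 86.7 CPM in wild type against 62.6, 35.4 and 108 CPM in knockout. 1810008I18Rik, the nearest, was at 74.6, 51.3 and 70.3 CPM in wild type against 50.8, 38.9 and 111.5 CPM in knockout. Their log2 fold changes for knockout against wild type were -0.15 to 0.04, with 0 called. In brain, with 10326 genes compared, the nearest were Slc25a39, Tmbim6, Impdh2, Ndufa11 and Mrps6 at 0.0197 to 0.0299. The 7 members of at least 10 CPM in brain lay farther from that median profile themselves, at 0.062 (Acaca) to 0.171 (Scd1), with 115 to 4814 of 10333 genes nearer to it. In liver the 8 such members lay at 0.0986 (Acly) to 0.386 (Thrsp), with 1 to 267 of 7598 genes nearer.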

How the data were processed

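Total RNA from brain and liver was sequenced in 12 libraries, 3 per tissue and genotype. TRIzol extraction, DNase treatment, depletion of ribosomal RNA and a stranded ligation kit preceded single-end reads, per the labels' protocols. The authors deposited expected counts per gene, with no normalization; cutadapt, STAR and mm10 are named in the submitters' processing notes, without roles or versions. Between 5.06% and 5.71% of values per library were not whole, and counts were rounded. The 12 replicate pairs differed by 27.2 to 228 times the degrees of freedom (chi-square over genes of at least 20 counts in the pair), so each library counted as 1 replicate.

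Comparisons used edgeR 4.0.16 quasi-likelihood tests (R 4.3.3, limma 3.58.1, robust, TMM, filterByExpr with minimum count 10 and total 15), with Benjamini-Hochberg adjustment over all genes tested and a threshold of 0.05. The SE is the absolute log2 fold change over the square root of F. The interaction used all 12 libraries and the other 4 comparisons 6 each. DESeq2 1.42.0 was an alternative. Fits were tested on simulated counts. CPM are on TMM effective library sizes within a tissue and do not compare tissues. Centred profiles and SDs use log2(CPM + 1). Intervals of a fold change are at the 95% level; the value of 3 counts covers counting error only, since reads are not independent molecules.

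The genes, the lists and the tests were chosen with earlier results of these data known. The text names all 9 members, Vaultrc5, 22 pathway genes listed by name (1 is not reported here), any list gene called in a knockout comparison (none was), markers, and the 5 genes per tissue nearest to the members' median profile. Same-numbered wild-type and knockout livers correlated at 0.326, 0.359 and 0.397 in their deviations from the group means over 13321 genes, so the numbers, which come from the titles, were taken to pair livers. Promoter sequences are RefSeq's. Alternatives were other size factors, other filters, robust estimation off, a threshold of 0.1, all 12 libraries in 1 fit, a pseudocount of 0.1 CPM for the profiles, the replicate block and each library left out.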

Additional observations from a re-analysis of the deposited data

How the results depend on the processing

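No member was called in the knockout comparisons or the interaction under any alternative run (adjusted p 0.677 to 1), and all 9 were called between tissues except Acaca and Elovl6 in knockouts under library totals. Depth limits Pnpla3 in liver, at 3 to 24 counts. Genes called in liver numbered 10 with the DESeq2 Wald test, 4 with no filter beyond 1 count, 2 under the replicate block and 0 to 1 with a library left out; the interaction called 1 with DESeq2 and 2 under the block. Under library totals the genes called higher in liver fell to 3998 in wild type and 3871 in knockouts. The causes were not tested.

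In liver, Acaca turned to -0.026 under library totals, -0.0010 with no filter and -0.0080 with all 12 libraries in 1 fit. Under the replicate block the liver effects were -0.17 for Fasn, -0.11 for Acaca, -0.13 for Acly and -0.13 for Thrsp; the interaction was -0.11 for Fasn, -0.036 for Acaca and -0.23 for Thrsp. The block changed no member's call. Brains with the same number correlated at 0.71 and 0.679 for numbers 1 and 2, more strongly than the livers, but at -0.0313 for number 3. The numbers were therefore not taken to pair brains, nor brain with liver (0.0321 to 0.07). With the block in brain, edgeR called 0 genes, and 406 had an unadjusted p under 0.05, against 122 without it. Of the members 0 were among those 406, and their median log2 fold change was -0.13.

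With each library left out in turn, liver effects ran from -0.92 to 0.45 for Fasn, -0.54 to 0.23 for Acaca, -0.65 to 0.37 for Acly, -0.38 to 0.43 for Scd1, -0.57 to 0.61 for Elovl6, -0.76 to 0.017 for Srebf1, -0.61 to 1.44 for Pnpla3, -0.42 to 0.28 for Me1 and -1.05 to 0.60 for Thrsp. Brain effects ran from -0.36 to 0.11 for Scd1, -0.28 to 0.0011 for Elovl6, -0.11 to 0.31 for Pnpla3 and -0.17 to 0.41 for Thrsp. The interaction ran from -0.85 to 0.50 for Fasn, -0.46 to 0.30 for Acaca, -0.38 to 0.63 for Acly, -0.19 to 0.59 for Scd1, -0.44 to 0.72 for Elovl6, -0.61 to 0.15 for Srebf1, -0.71 to 1.31 for Pnpla3, -0.24 to 0.45 for Me1 and -1.10 to 0.52 for Thrsp.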
